A study of Mus musculus with 11 samples.

Results

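Cells that the authors annotated T were taken from a single-cell 3' RNA sequencing study of mouse colonic mucosa by the cell type column of the deposited cell table. There were 4550 such cells among 55603 cells (8.18%) in 11 libraries. The authors' fuller annotation split them into 248 proliferating cells and 4302 with no further name. The uninjured library came from wild-type mice about 2 months old. Wild-type mice of the same age were given 3% dextran sulfate sodium (DSS), a polysaccharide that injures the colonic epithelium, for 6 days and gave 9 libraries. Of these, 6 were frozen (days 6, 9, 12, 16, 19 and 23 from the start of DSS) and 3 were processed fresh as batch C (days 7, 11 and 18). The last library came from Il10-/- mice about 10 months old with colitis, in which the gene of interleukin 10, a cytokine that restrains inflammation, is knocked out. They were not given DSS. Each library pooled the mucosa of several mice, and no group had more than 1 library. By the cell table, fresh pools held 3 mice, and the other 8 libraries, the uninjured and Il10-/- ones included, were frozen cells from 8 mice each. The tissue was stripped of its muscle layers, digested with Liberase and DNase, and depleted of dying cells with annexin V beads, steps that set which cells were captured. The p-values below rest on the 9 DSS libraries, or fewer where stated, with 1 pool per day. They set a relation with day or batch, or a difference within libraries, against the scatter over these libraries. The spread between pools of the same day was not measured.

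T cells recognise antigen through a receptor of an alpha and a beta chain, or of a gamma and a delta chain, held at the surface by the CD3 proteins. CD4 cells direct other immune cells, CD8 cells kill infected cells, and regulatory cells that carry the transcription factor Foxp3 restrain responses. In the gut, gamma delta T cells and CD4 cells make interleukins 17 and 22, which act on the epithelium in barrier defence. Natural killer (NK) cells and innate lymphoid cells share many genes with T cells but carry no T cell receptor.

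The libraries held 38 (uninjured) to 1318 (Il10-/-) T cells and 56247 to 3420163 UMIs (unique molecular identifiers, each a captured RNA molecule) over them. T cells of the fresh libraries were deeper, with a median of 4644 to 5734 UMIs per cell against 1115 to 2402 in the 6 frozen DSS libraries. Only 6 barcodes of T cells occurred in more than 1 library, and 4544 barcodes were distinct. RNA of other cells was present in the T cells. S100a8, a neutrophil gene, had a UMI in 2.63% of T cells in the uninjured library, in over 97% on days 9, 11 and 12, and in 22.4% on day 23. Igkc, an antibody light chain of plasma cells, had one in 7.93% of T cells on day 7 and in 100% on days 16, 19 and 23. In the other direction, Cd3e had a UMI in at most 1.24% of the cells annotated B in any library. Levels below are in CPM, the UMIs of a gene scaled to the same total of UMIs over the T cells of each library.

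Il10, the gene targeted in the Il10-/- mice, was detected in T cells of that library. It had 319 UMIs in 207 of 1318 T cells (15.7%), or 108 CPM. Across the DSS libraries its T cell level ran from 0 on day 6 over a median of 62.1 to 203 CPM on day 16. The Il10-/- library therefore lay within the DSS range. The method counts transcript 3' ends and the labels do not say which part of the gene is deleted, so this count does not check the genotype. Other cell types of the Il10-/- library also held the transcript, with a UMI in 29.9% of neutrophils, 18.2% of fibroblasts and 2.87% of B cells.

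The given T cell markers were high in these cells and near 0 in the others. Cd3g, a CD3 chain, was at 925 CPM in T cells and 2.38 CPM in all other cells, and had a UMI in 62.5% of T cells. Cd3e, another CD3 chain, was at 393 against 1.21 CPM, with a UMI in 52.0%. Trac, the constant part of the receptor alpha chain, was at 472 against 2.05 CPM. Of the 1539 genes seen in at least 20% of T cells, the ratio to other cells was highest for Cd3g (389-fold), the chemokine receptor Cxcr6 (337-fold), Cd3e (324-fold), the granule gene Nkg7 (312-fold) and the beta chain gene Trbc2 (279-fold). Next came Cd3d (258-fold), the co-stimulatory receptor Icos (255-fold), the granule protease Gzmb (246-fold) and Trac (230-fold). Skap1, Trbc1, Il2rb, Cd5, Ctsw and Tnfrsf4 filled the rest of the first 15, at 187-fold to 225-fold. Subset genes were seen in fewer cells. Cd4 had a UMI in 22.7% of T cells, Cd8a in 12.3%, the delta chain gene Trdc in 11.9% and Foxp3 in 9.21%. These values describe cells that were annotated on their expression and are no test.

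The share of T cells was lowest in the uninjured library and highest in the Il10-/- library. T cells were 2.09% of uninjured cells (exact Clopper-Pearson 95% interval 1.48% to 2.85%) and 22.6% of Il10-/- cells (21.5% to 23.7%). Across the 9 DSS libraries the lowest share was 2.35% on day 6, the median 6.51% and the highest 11.2% on day 16. The 3 fresh libraries lay within 5.39% to 5.50%, below each of the frozen libraries of day 9 and later. The share's relation with day did not pass. Pearson's r was 0.634 (exact permutation p = 0.0670, adjusted p = 0.340 over 21 cell types) and Spearman's rho 0.583 (exact permutation p = 0.108, adjusted p = 0.324). Within the 6 frozen DSS libraries r was 0.719 (exact permutation p = 0.0944, adjusted p = 0.248), and without days 19 and 23, the days farthest from the median, r was 0.511. The 3 fresh libraries are too few for a value of their own. Among immune cells alone, T cells made up 19.4% in the uninjured library and 32.3% in the Il10-/- library, with 3.45% on day 6 as the lowest.

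**Figure D1:**
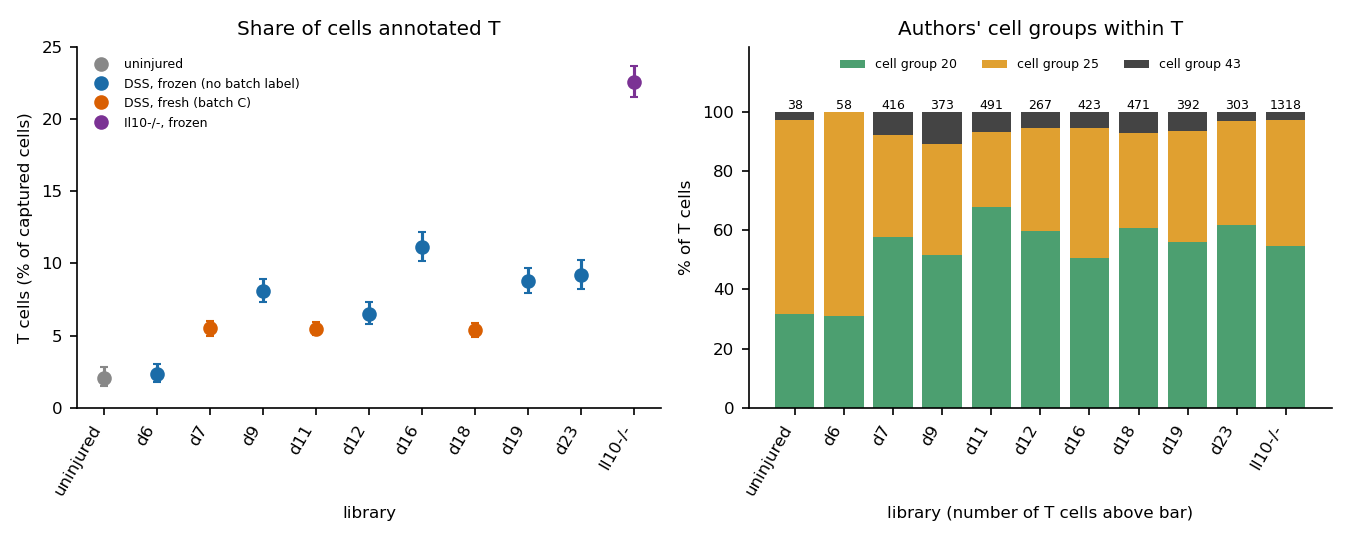
Left, T cells as a percentage of captured cells (y axis) in each of the 11 libraries (x axis), with exact 95% intervals that cover counting error only. Right, the percentage of T cells (y axis) in the authors' cell groups 20, 25 and 43 per library, with the number of T cells above each bar. The Il10-/- library stands at 22.6%, and group 25 takes its highest shares in the uninjured and day 6 libraries.

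The cell table numbers 3 groups of cells within the T annotation. Group 20 held 2586 cells (56.8%, median 2986.5 UMIs), group 25 held 1716 (37.7%, median 1138 UMIs), and group 43, which is the proliferating annotation, held 248 (5.45%, median 5861.5 UMIs). Group 43 was led by the histone gene Hist1h1b (162-fold over the other T cells) and the mitosis genes Nusap1 (99.8-fold), Bub1 (73.8-fold) and Ccna2 (72.0-fold). Mki67, a marker of dividing cells, had a UMI in 69.4% of group 43 and Top2a in 80.6%. Group 20 was led by Izumo1r (5.08-fold), Bcl2a1a (5.06-fold), G0s2 (4.46-fold) and the neutrophil genes Retnlg (4.32-fold), S100a8 (4.22-fold) and S100a9 (4.17-fold). The growth factor gene Areg (4.16-fold), the CD4 helper ligand Cd40lg (3.98-fold) and Cxcr6 (3.64-fold) came after them. Bcl2a1a has near-identical copies, between which reads may have been split.

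Group 25 was higher than group 20 in NK cell genes and lower in most T cell identity genes, and the label T was met by it only in part. Its leading genes were Klra7 (60.3-fold), Ncr1 (23.1-fold) and Klrb1c (22.5-fold), all NK cell receptors, the chemokine gene Xcl1 (21.4-fold), and Klre1 (18.5-fold) and Klrd1 (9.01-fold), killer lectin receptors. The Klra genes are a family of near copies, so the split of reads among them is uncertain. Cd3e had a UMI in 28.0% of group 25 and 66.4% of group 20, at 294 and 444 CPM. Trac had one in 25.7% and 64.6%. All 13 members of the killer lectin and NK cell list were higher in group 25 than in group 20, with summed levels of 4810 and 734 CPM. The cytotoxic list summed to 12663 CPM in group 25 and 3009 CPM in group 20, and 15 of its 17 members were higher in group 25. The type 17 list, which holds Il17a, Il22 and their regulators, ran the other way, at 1109 and 4492 CPM. Eomes, a transcription factor of NK and memory CD8 cells, was at 50.6 CPM in group 25 and 1.31 CPM in group 20. Fcer1g, a signalling chain of NK and innate cells, was at 1057 and 145 CPM. Some T cell genes were also higher in group 25 than in group 20. The gamma chain genes Tcrg-C2 (127 and 48.0 CPM) and Tcrg-C4 (109 and 39.3 CPM), Cd8a (173 and 82.8 CPM) and Cd160 (251 and 39.7 CPM) were among them. Of the gamma delta list 3 of 11 members were higher, while Tcrg-C1 (84.1 and 182 CPM) and Trdc (119 and 567 CPM) were lower.

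The CD8 cells of these groups differed in their coreceptor. Of 268 cells with a Cd8a UMI in group 20, 228 (85.1%) also had Cd8b1, the partner chain on conventional CD8 cells. Of 245 such cells in group 25, 44 (18.0%) had it, although cells of group 25 were also shallower. Group 25 took 25.5% (day 11) to 69.0% (day 6) of T cells in the DSS libraries, with a median of 35.3%, and 65.8% in the uninjured and 42.3% in the Il10-/- library. These groups were made from the same expression values, so their genes are a description.

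The makeup by Cd4, Cd8a, Foxp3 and Trdc was compared after each cell was thinned to 1000 UMIs, since depth differed between libraries. Cells under 1000 UMIs were left out, which bears most on group 25 (median 1138 UMIs, against 2986.5 in group 20). In T cells of the DSS libraries the share with a Cd4 UMI ran from 4.35% (day 7) over a median of 8.92% to 17.2% (day 23). It rose with day (r 0.809, exact permutation p = 0.00782, adjusted p = 0.0331 over 8 tests; rho 0.833, exact permutation p = 0.00827, adjusted p = 0.0331). Within the 6 frozen DSS libraries r was 0.830 (exact permutation p = 0.0472, adjusted p = 0.274), and without days 19 and 23 it was 0.618 (adjusted exact permutation p = 0.224), so the call rests on those days. The adjusted p also lay above 0.05 when day 6, 7, 9, 11, 19 or 23 was left out alone. With all UMIs kept, the Cd4 share ran from 6.90% to 29.9% and r was 0.535 (adjusted exact permutation p = 0.549). The Il10-/- library had a thinned Cd4 share of 19.7%, above each DSS library.

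Foxp3 was seen in 3.07% (day 7) to 7.00% (day 12) of thinned DSS T cells, with a median of 4.35%. Its rank correlation with day passed (rho 0.783, exact permutation p = 0.0172, adjusted p = 0.0459), Pearson's r did not (0.722, exact permutation p = 0.0348, adjusted p = 0.0557), and with all UMIs kept rho was -0.150. Cd8a was seen in 0 of 32 thinned T cells on day 6, where a share of 9.38% is still possible, and in 4.35% to 11.0% on the other days (r 0.702, exact permutation p = 0.0271, adjusted p = 0.0543). Trdc ran from 5.92% (day 19) over a median of 11.3% to 17% (day 12) with no relation to day (r 0.0656, exact permutation p = 0.862, adjusted p = 0.985). Within the 6 frozen DSS libraries r was 0.631 for Cd8a, 0.763 for Foxp3 and -0.29 for Trdc. In the Il10-/- library 5.81% of thinned T cells had Cd8a, 5.93% Foxp3 and 9.53% Trdc. The uninjured library kept only 21 T cells at this depth, 1 of which (4.76%) held each gene. With all UMIs kept, Trdc had a UMI in 9.22% of fibroblasts (median 3358 UMIs per cell) and 8.62% of T cells (median 1115 UMIs) on day 6, so the T cell share of that day was no higher than this background. On days 7, 9 and 11 it had one in 4.62%, 5.96% and 6.01% of fibroblasts, which were deeper than the T cells, and in 11.5%, 13.7% and 14.7% of T cells. In cells annotated B, thinned alike, no share exceeded 0.683% except for Cd4 in the uninjured library (1 of 33 cells).

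**Figure D2:**
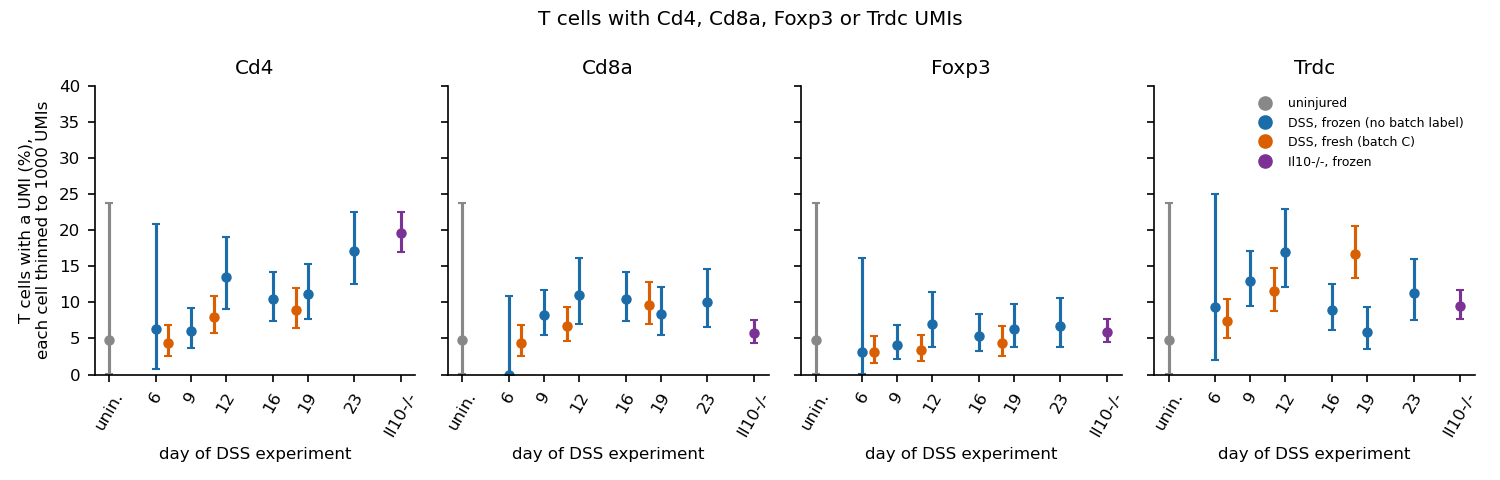
Percentage of T cells with at least 1 UMI of Cd4, Cd8a, Foxp3 or Trdc (y axes) against day (x axes). Each cell was thinned to 1000 UMIs, and shallower cells were left out. The exact 95% intervals cover counting error only. Frozen and fresh DSS libraries are coloured apart, the uninjured library is at the left and the Il10-/- library at the right. Cd4 runs from 4.35% on day 7 to 17.2% on day 23, and Trdc shows no order by day.

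Some T cells held no UMI of 10 receptor and CD3 genes. After thinning to 1000 UMIs, with shallower cells left out, these were 9.38% of the T cells kept. The share was highest on day 6 (21.9%) and day 7 (19.4%), lowest on day 12 (5.0%), and 5.58% among the Il10-/- T cells kept. In the Il10-/- library the median was 702 UMIs in group 25 and 2463 in group 20, so a larger part of group 25 was left out. In B cells the same share was 94.4% to 100%. Among the DSS libraries the T cell share was lower on later days by r (-0.71, exact permutation p = 0.0297, unadjusted), with rho -0.68 (exact permutation p = 0.0503, unadjusted). Within the 6 frozen libraries r was -0.70 (exact permutation p = 0.108). The size of r depended on depth. It was -0.83 at 500 UMIs (exact permutation p = 0.00158), -0.46 at 2000 UMIs (exact permutation p = 0.210) and -0.20 with all UMIs kept (exact permutation p = 0.633).

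T cells were next split by their own UMIs into 411 Foxp3 cells, 816 Cd4 cells without Foxp3, 511 Cd8a cells and 485 Trdc cells. A further 67 cells held several of these genes and 2260 held none, of which 53.4% were in group 25. The genes compared between these cells were chosen after the data had been seen. Each comparison was made within a library over the 8 DSS libraries with at least 10 cells on each side (day 6 had too few), by an exact sign-flip permutation test on log2(CPM + 10), two-sided, adjusted over 30 comparisons. The smallest p that 8 libraries allow is 0.0078125, or 0.0180 adjusted, and 21 of 30 comparisons passed.

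Il17a, the gene of interleukin 17A, was concentrated in Trdc cells. In them it ran from 2018 over a median of 4019 to 10405 CPM, against 26.5, 354 and 914 CPM in Cd4 cells. The groups did not overlap. The log2 difference was 3.83 ± 1.31 (SD, n = 8 libraries), with Trdc cells higher in 8 of 8 (exact permutation adjusted p = 0.0180). Cxcr6 was also higher in Trdc than in Cd4 cells, by 1.18 ± 0.86 (SD, n = 8; 8 of 8 libraries, exact permutation adjusted p = 0.0180). Il22, the gene of interleukin 22, ran the other way, at 0 to 683 CPM (median 6.07) in Trdc cells and 71.6 to 1195 CPM (median 428) in Cd4 cells. It was lower in Trdc cells in 7 of 8 libraries (log2 difference -3.45 ± 2.33, SD, n = 8; exact permutation adjusted p = 0.0247). The exception was the fresh library of day 7, with 683 CPM in Trdc and 388 CPM in Cd4 cells. Il17f, the neighbour and close relative of Il17a, was at 0 to 544 CPM (median 89.8) in Trdc cells and 12.9 to 558 CPM (median 198) in Cd4 cells, and did not pass (adjusted exact permutation p = 0.225). Ifng, the gene of interferon gamma, did not pass either (log2 difference -0.04 ± 2.74, SD, n = 8; adjusted exact permutation p = 0.970).

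Il17a passed between Trdc and Cd4 cells and its neighbour Il17f did not, and the difference between them was not tested. The 250 bases upstream of each start are shown for comparison, as RefSeq gives them for GRCm38.p6. Il17a lies on the forward strand (chr1:20730655-20730904) and Il17f on the reverse strand (chr1:20784271-20784520). The capitals mark AGGTCA, a core recognised by many nuclear receptors, or its reverse complement TGACCT.
Il17a: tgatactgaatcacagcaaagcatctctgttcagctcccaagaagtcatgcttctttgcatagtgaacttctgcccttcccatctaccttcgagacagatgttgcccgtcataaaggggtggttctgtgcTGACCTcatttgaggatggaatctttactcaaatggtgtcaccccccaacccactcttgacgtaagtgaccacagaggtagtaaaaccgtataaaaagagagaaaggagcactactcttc
Il17f: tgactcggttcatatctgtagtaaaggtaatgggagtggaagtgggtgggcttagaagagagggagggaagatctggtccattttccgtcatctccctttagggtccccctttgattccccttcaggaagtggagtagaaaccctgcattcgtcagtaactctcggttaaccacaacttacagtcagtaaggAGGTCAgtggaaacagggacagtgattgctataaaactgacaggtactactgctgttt
Both windows held 1 match. In Il17a it was on the opposite strand, with its first base 120 bases upstream of the start, and in Il17f on the same strand, 58 bases upstream. AGGTCA or TGACCT was found in 4604 of 32817 such windows (14%), so a match is common, and it describes letters and not a bound site.

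Foxp3 cells carried the genes of regulatory T cells. Ctla4, an inhibitory receptor, was at 1148 to 2079 CPM (median 1629) in them and 216 to 724 CPM (median 538) in Cd4 cells without Foxp3, with no overlap (log2 difference 1.66 ± 0.59, SD, n = 8; 8 of 8, exact permutation adjusted p = 0.0180). Il10 was at 40.6 to 698 CPM (median 334) against 0 to 107 CPM (median 51.8) and was higher in 8 of 8 libraries (2.59 ± 0.74, SD; exact permutation adjusted p = 0.0180). Ikzf2, a transcription factor (2.51), Tnfrsf4, the OX40 receptor (1.79) and Gzmb (2.05) were higher in 8 of 8 libraries as well (n = 8, exact permutation adjusted p = 0.0180 each). Klrg1 (2.79), Il2ra, a chain of the interleukin 2 receptor (1.23), and Areg, the gene of the repair factor amphiregulin (1.42), were higher in 7 of 8 (n = 8, exact permutation adjusted p = 0.0247, 0.0247 and 0.0335). Il17a was lower in Foxp3 cells in 8 of 8 (-2.21, n = 8, exact permutation adjusted p = 0.0180).

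Several genes of killing and chemokines were higher in Cd8a than in Cd4 cells. In the DSS libraries 37.9% of the Cd8a cells and 10.2% of the Cd4 cells were in group 25. Of the genes named here, Gzma (1902 and 371 CPM), Ccl5 (5488 and 934 CPM), Xcl1 (1384 and 33.0 CPM), Klrd1 (672 and 69.5 CPM) and Prf1 (145 and 13.3 CPM) were higher in group 25 than in group 20. Itgae was similar (66.7 and 61.2 CPM). Gzma, a granule protease, was at 283 to 3052 CPM (median 1921) in Cd8a cells and 0 to 369 CPM (median 17.5) in Cd4 cells (log2 difference 5.0 ± 1.62, SD, n = 8; 8 of 8, exact permutation adjusted p = 0.0180). Ccl5 (5.31) and Xcl1 (4.49), chemokines, Klrd1 (3.41) and the integrin Itgae, which binds E-cadherin of the epithelium (1.75), were higher in 8 of 8 libraries (n = 8, exact permutation adjusted p = 0.0180 each). Prf1, the pore protein perforin, was higher in 7 of 8 (1.63, n = 8, exact permutation adjusted p = 0.0247). Fcer1g was higher in 7 of 8 (2.24, n = 8, exact permutation adjusted p = 0.0335), but without group 25 the difference was 0.35 (adjusted p = 0.590). Gzmb was higher in 6 of 8 and did not pass (1.06 ± 2.06, SD, n = 8; adjusted exact permutation p = 0.225), nor did Ifng (0.01 ± 2.69, SD, n = 8; adjusted exact permutation p = 0.992). Restricted to frozen libraries, 5 remained for these tests and none of the 30 comparisons could pass (smallest adjusted exact permutation p = 0.0852).

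**Figure D3:**
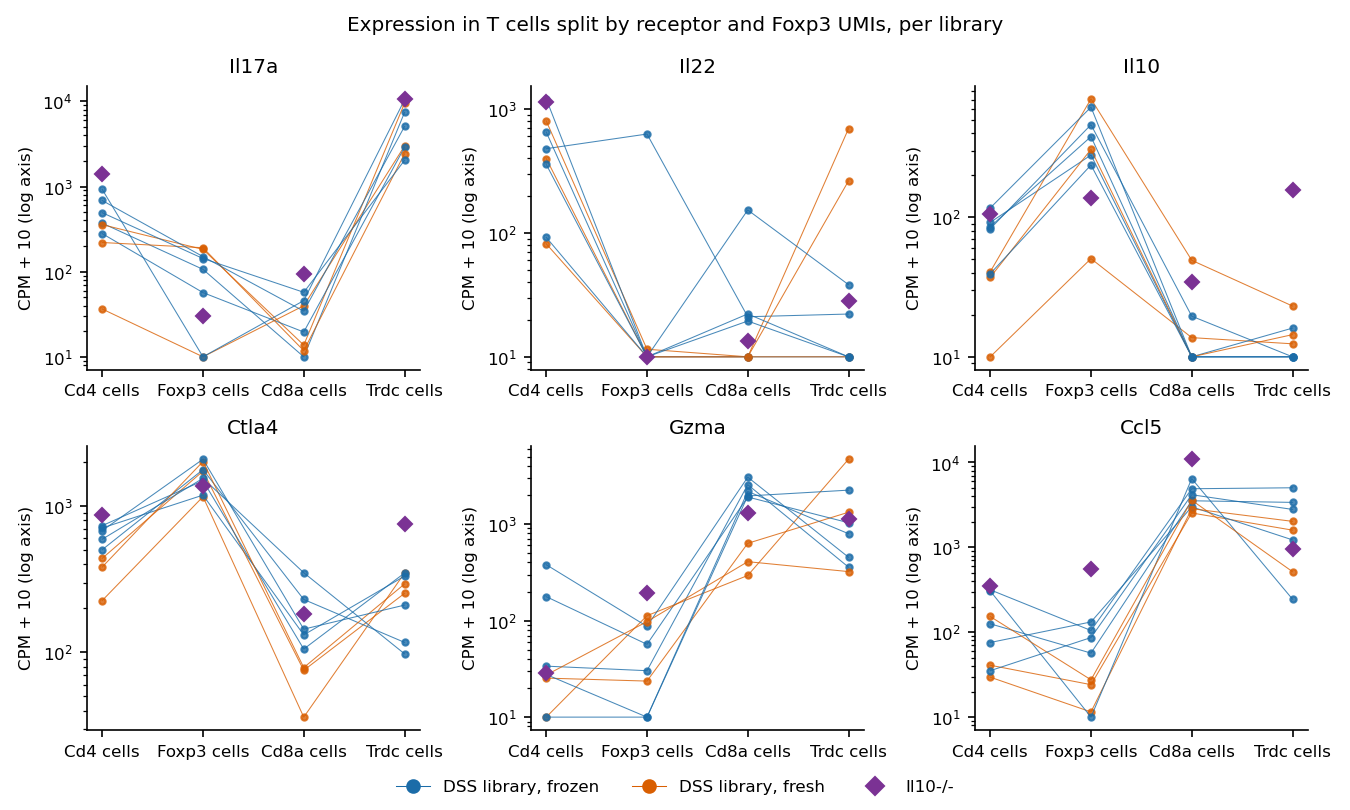
CPM + 10 on a log axis (y) of 6 genes in Cd4, Foxp3, Cd8a and Trdc cells (x), 1 point per DSS library with at least 10 such cells, joined by lines, and the Il10-/- library as diamonds. Il17a peaks in Trdc cells, Il10 and Ctla4 in Foxp3 cells and Ccl5 in Cd8a cells.

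Cells annotated T, group 25 included, held most UMIs of several cytokine genes among all captured cells. They held 96.8% of the Il17a UMIs, 96.8% of the Il22 UMIs and 95.1% of the Ifng UMIs of the DSS libraries. Of the T cells' Il17a UMIs in the DSS libraries, 85.3% lay in Trdc cells and 5.49% in Cd4 cells. In the Il10-/- library the parts were 57.0% and 25%. Il17a had a UMI in 46.4% of Trdc and 10.5% of Cd4 cells of the pooled DSS libraries, and in 67.3% and 31.1% in the Il10-/- library. Il22 in the Il10-/- library lay in Cd4 cells for 61.8% of its UMIs and in Trdc cells for 0.297%, against 27% and 11.0% in the DSS libraries. Cells with none of the 4 genes held 34.0% of the Il22 UMIs in the Il10-/- library and 59.1% in the DSS libraries. They held 29.0% of the T cells' Ifng UMIs in the Il10-/- library and 61.6% in the DSS libraries. In the DSS libraries 50.4% of these cells were in group 25, which met the label T only in part. Ifng was at 734 CPM in group 25 and 349 CPM in group 20, so NK and innate lymphoid cells were not separated from T cells here. Of the 444 Il22 UMIs of DSS Trdc cells, 285 were in the day 7 library. Il17f likewise lay in Trdc cells for 35.9% of its UMIs in the DSS libraries and for 1.61% in the Il10-/- library. Il10 UMIs of the DSS T cells lay in Foxp3 cells for 63.9%, and T cells held 37.2% of the Il10 UMIs of all cells. T cells held 8.45% of the Areg UMIs of all DSS cells and 44.2% of those in the Il10-/- library. Shares of all cells also depend on the T cells captured, 22.6% of Il10-/- cells and 2.35% to 11.2% of cells per DSS library. The DSS parts pool frozen and deeper fresh libraries. Of the 12969 Il17a UMIs of DSS T cells, 6228 were in the fresh library of day 11. A single Il10-/- library allows no test of these differences.

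Cytokine levels per library rested on few cells. Il17a was at 0 in the uninjured library (0 of 38 cells, so that a true share of 7.89% is still possible), at 268 (day 6) over a median of 579 to 2331 CPM (day 12) in the DSS libraries and at 1750 CPM in the Il10-/- library. A single cell held 8.89% to 69.6% of the Il17a UMIs of a DSS library. Il22 was at 3136 CPM on day 6, where 1 cell held 96.7% of the UMIs, and at 37.5 to 585 CPM on the other DSS days. Ifng ran from 120 CPM on day 11 to 2122 CPM on day 6, and 1 cell held 68.6% of its UMIs on day 16. Neither these genes nor any other of the 23 tested members of the T cell cytokine list passed for day.

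Across the DSS days, few T cell genes changed. With counts summed per library, edgeR's quasi-likelihood test with day and batch as terms called 8 rising and 9 falling of 7848 genes (0.217%; 0.102% rising and 0.115% falling), and 755 genes had an unadjusted p under 0.05. DESeq2 called 75. The calls depended on the batch term (0 without it) and on single libraries (0 without day 18, 80 without day 7, 36 without day 12 and 110 without day 11). Of the calls, 4 rising and 3 falling were genes at least as high in T cells as in the other cells, 1 of them an unnamed predicted gene. The other 10 were higher in other cell types: the mucus genes Muc2, Clca1 and Fcgbp and the pancreas-type gene Sycn were higher on later days, and the collagen gene Col3a1, Ccl2, Serpina3n, Tnfaip6, Vegfa and Nfkbiz were lower. For these, RNA of other cells in the T cells was not tested.

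Cd3g rose, from 536 CPM on day 6 and 535 CPM on day 7 over a median of 870 to 1241 CPM on day 23. Each library from day 16 on was above each library before it. Its slope was 0.76 ± 0.14 (SE) log2 units per 10 days (edgeR adjusted p = 0.00860). Cd3g lies at chr9:44969572-44980431 on the reverse strand (mm10). Cxcr6, the receptor for the chemokine Cxcl16 and a gene of tissue-resident T cells, rose from 159 CPM on day 7 over a median of 311 to 464 CPM on day 23 (slope 0.77 ± 0.15, SE; edgeR adjusted p = 0.0152; chr9:123806475-123811760, forward strand). Capn3, a calpain protease, rose at a low level, from 3.51 CPM on day 11 to 25.7 CPM on day 18, both fresh libraries (1.77 ± 0.37, SE; edgeR adjusted p = 0.0439; chr2:120456019-120504913, forward strand). In the frozen libraries alone its slope was 0.95 (edgeR adjusted p = 0.474), and without day 18 it was 0.89 (edgeR adjusted p = 0.687).

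Irf8, an interferon regulatory factor of myeloid and NK cells, fell from 245 CPM on day 6 and 209 CPM on day 7 to 59.7 CPM on day 23, with a median of 78.6 CPM (slope -1.28 ± 0.21, SE; edgeR adjusted p = 0.00946; chr8:120736358-120756694, forward strand). Serpinb6b, a serine protease inhibitor, fell from 320 CPM on day 7 to 73.6 CPM on day 23 (-0.87 ± 0.17, SE; edgeR adjusted p = 0.0212; chr13:32965209-32979067, forward strand). Cxcr4, the receptor for the chemokine Cxcl12, fell with day in the fit with batch (-0.74 ± 0.15, SE; edgeR adjusted p = 0.0293; chr1:128588199-128592293, reverse strand). Its frozen libraries ran from 431 CPM on day 6 to 112 CPM on day 23, and its fresh libraries lay lower, at 86.8 to 131 CPM. Within group 25, Irf8 was at 364 to 648 CPM on days 6 to 11 and at 110 to 167 CPM on days 12 to 23, with a slope of -1.28 that did not pass (edgeR adjusted p = 0.130). Without group 25, whose share was highest on day 6, the slope of Irf8 was -0.85 (edgeR adjusted p = 0.241).

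Whether the named calls passed depended on which cells and libraries were used. The named falling genes also passed in the frozen libraries alone. Without group 25 the slopes of Cd3g (0.79, edgeR adjusted p = 0.0734) and Cxcr6 (0.75, edgeR adjusted p = 0.119) were of like size and did not pass. Those of Serpinb6b (-0.72, edgeR adjusted p = 0.202) and Cxcr4 (-0.57, edgeR adjusted p = 0.246) did not pass without it either, and Capn3 was too low there to be tested. In the frozen libraries alone the slopes of Cd3g and Cxcr6 were 0.65 (edgeR adjusted p = 0.0589) and 0.55 (edgeR adjusted p = 0.200). The slopes of Irf8 (-1.08, edgeR adjusted p = 0.0194), Serpinb6b (-0.95, edgeR adjusted p = 0.0118) and Cxcr4 (-0.84, edgeR adjusted p = 0.0200) passed there. Without day 18, a fresh library, the edgeR adjusted p of Cd3g was 0.0954 and that of Cxcr6 was 0.218. The next genes by p did not pass. Among those with positive slopes were St6galnac3 (0.85), Cd3e (0.59) and the co-stimulatory receptor Cd28 (0.68), each at an edgeR adjusted p of 0.0626, and Slamf1 (0.84) and Cd2 (0.63). Among those with negative slopes were the adhesion gene Icam1 (-0.73, edgeR adjusted p = 0.0570), Pim2 (-1.04) and the interferon-induced Gbp5 (-1.15).

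**Figure D4:**
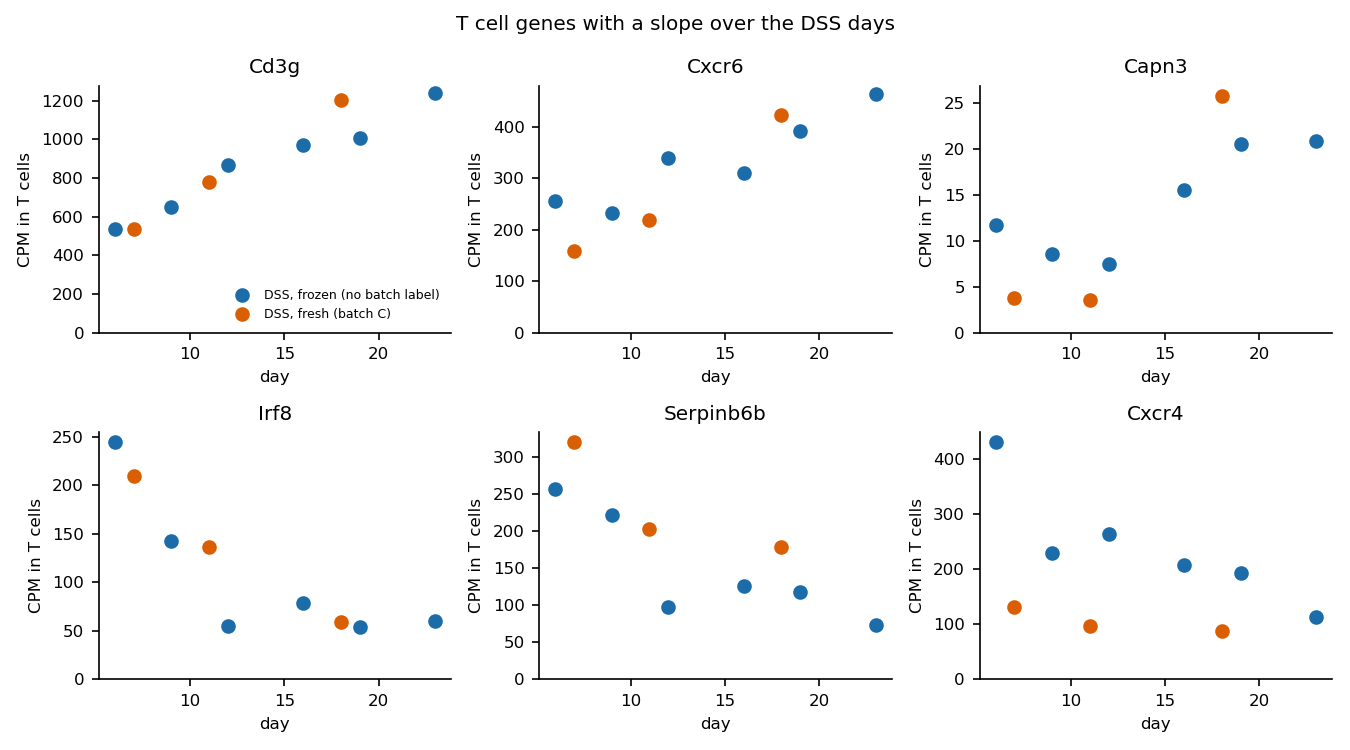
CPM in T cells (y axes) of Cd3g, Cxcr6, Capn3, Irf8, Serpinb6b and Cxcr4 in each DSS library against day (x axes), frozen and fresh libraries coloured apart. Cd3g runs from 535 CPM on day 7 to 1241 CPM on day 23, and Irf8 from 245 CPM on day 6 to 59.7 CPM on day 23.

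Gene lists showed slopes with few single calls. All 13 members of the T cell identity list had slopes above 0, with a median of 0.55 against 0.02 over all genes, and 1 (Cd3g) passed. All 13 members of the killer lectin and NK cell list had slopes below 0 (median -0.65), and none passed. Examples were Eomes (-1.27 ± 0.43, SE; edgeR adjusted p = 0.288), Klre1 (-0.90) and Tyrobp (-0.65). The gamma delta list (11 tested, median 0.44), the regulatory list (19 tested, 0.23), the cytotoxic list (15 tested, -0.15), the type 1 list (11 tested, -0.49), the interferon response list (19 tested, -0.20) and the cell cycle list (18 tested, -0.29) had no call. Without group 25 the median slope was 0.22 for the cytotoxic list (11 of 15 above 0, 1 passed), 0.28 for the type 1 list (6 of 10 above 0) and 0.16 for the gamma delta list (7 of 10 above 0), so the sign of the first and the second turned. In the type 17 list 1 of 14 passed, Cxcr6, while Il17a (-0.65 ± 0.85, SE) and Il22 (-2.30 ± 0.64, SE) did not. Markers of other cells moved beside them. Neutrophil genes had a median slope of -1.43 (0 of 7 passed), plasma cell genes of 2.13 (0 of 6), columnar epithelial genes of 0.88 (2 of 12 rose) and fibroblast genes of -0.91 (1 of 6 fell). Their part in the T cell slopes was not tested.

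Within group 25 alone, edgeR called 45 genes, 17 rising and 28 falling, of which 31 were as high or higher in T cells than in other cells. CD3 chains rose in it, Cd3g by 0.77 ± 0.15 (SE; edgeR adjusted p = 0.00474), Cd3e by 0.71 (edgeR adjusted p = 0.0290) and Cd3d by 0.59 (edgeR adjusted p = 0.0482) log2 units per 10 days, and so did Cd8a (1.04, edgeR adjusted p = 0.0137), Cd7 (0.88, edgeR adjusted p = 0.00148) and Cd160 (0.82, edgeR adjusted p = 0.00884). Genes that fell in it included Prf1 (-1.45 ± 0.24, SE; edgeR adjusted p = 0.00117), Serpinb9, which protects killer cells from their own granules (-1.35), Gbp5 (-1.83), Icam1 (-1.06), the transcription factors Batf (-1.19) and Stat3 (-0.73), and Klre1 (-0.78). Without group 25, 6 genes were called, and Fasl, the death ligand of killer cells, was the one that was named by the same rule (1.40, edgeR adjusted p = 0.0244). These fits were added after the data had been seen, and the difference in slopes between the groups was not tested.

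Fresh and frozen libraries differed in far more genes than early and late ones. The batch term called 478 higher and 441 lower genes in the fresh libraries (11.7%; 6.09% higher and 5.62% lower; edgeR), and 846 of these 919 (92.1%) had the same sign in the other cells, against 67.7% of all genes. Rnasek had 1764 UMIs in fresh T cells and 1 in frozen DSS T cells, and Adnp had 366 and 0, while Taf6l was at 5.39 and 92.3 CPM. Genes of naive and central memory T cells were higher in fresh libraries in 7 of 12 cases (median 0.80 against 0.02 over all genes). Lef1, a transcription factor of naive T cells, was at 87.7 to 119 CPM in fresh and 0 to 55.5 CPM in frozen DSS libraries, with no overlap (1.84 ± 0.23, SE; edgeR adjusted p = 5.99e-06). S1pr1, which lets T cells leave tissue (1.32), Tcf7 (0.78) and Klf2 (0.59) were also called higher. Of 16 genes of receptor signalling and NF-kB feedback, 7 were lower in fresh libraries, such as Nr4a3 (-1.29 ± 0.20, SE) and Tnfaip3 (-1.02 ± 0.18, SE), and 1 was higher. Itgae (-1.17) and the checkpoint receptor Lag3 (-1.45) were lower as well. Markers of other cells differed too: 4 of 12 columnar epithelial genes were higher in fresh libraries (median 0.97), while 3 of 6 plasma cell genes (median -3.51), 2 of 6 fibroblast genes (median -0.45) and 2 of 3 dendritic cell genes (median -1.88) were lower, and their part was not tested. Rnasek and Adnp split alike in the other cells, at 173 and 37.6 CPM in fresh and 0.263 and 0.275 CPM in frozen DSS libraries. The batch calls are thus not particular to T cells. Freezing, sequencing run, pool size, depth and any other step that differed between the batches cannot be told apart here.

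T cells of the Il10-/- library were compared with the 6 frozen DSS libraries pooled. A gene was counted when it differed by at least 2-fold and lay outside the range of those libraries, which gives no p-value. Of 7894 genes with at least 50 counts, 85 were higher and 104 lower (2.39%; 1.08% higher and 1.32% lower). With TMM scaling in place of CPM, the split was 131 higher and 70 lower. The median log2 ratio of all genes was -0.07. Genotype, age and DSS cannot be told apart in this comparison, and the pools also differed in sex: Xist, transcribed in female cells, had 632 UMIs in Il10-/- T cells and 0 in the frozen DSS T cells (at least 308-fold higher against a floor of 3 counts over the group), while the Y-linked Ddx3y was at 148 CPM there and at 108 to 199 CPM in the frozen DSS libraries.

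Among the other higher genes, Il17re, a subunit of the receptor for interleukin 17C, was at 48.4 CPM in Il10-/- T cells and 6.80 to 27.8 CPM in the frozen DSS libraries (3.27-fold, exact Poisson 95% interval 2.42 to 4.46). Ctse, the protease cathepsin E, was at 70.7 against 0 to 4.25 CPM (27.8-fold, 15.2 to 56.5). Oser1 was at 192 against 11.7 to 58.3 CPM (6.14-fold). Bcl2a1a (3.16-fold), Serpine2 (3.2-fold), Pde5a (3.53-fold), Adgrg1 (4.06-fold), Sgip1 (4.11-fold), Cpe (3.39-fold) and the mucosal peptide gene Tff1 (3.25-fold) also passed. Elavl2 (139-fold) rested on 95 UMIs in 18 cells, of which 1 cell held 35.8%. The type 17 list had 14 of 14 members above 0, with a median log2 ratio of 0.50 against -0.07 over all genes, and 2 of 14 passed, Tmem176a (2.93-fold) and Tmem176b (2.87-fold). Il17a itself was at 1750 CPM, within the DSS range.

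The lower genes were led by NK cell receptors and cytokines. Of 12 tested members of the killer lectin and NK cell list, 10 were lower in the Il10-/- library and none higher, with a median log2 ratio of -1.31. Klra4 had 0 UMIs against 94 (at least 21.4-fold lower against a floor of 3 counts), and Eomes was at 3.38 against 7.51 to 81.6 CPM. Klra1 (0.143 of the DSS level), Klri2 (0.244) and Spry2 (0.225) were lower too. The share of group 25 among the Il10-/- T cells was within the DSS range. Of the list's members, 9 were also looked at within group 25. There 8 lay below the range of the frozen DSS libraries (Klra4, Klra7, Klrb1c, Klre1, Ncr1, Eomes, Fcer1g and Tyrobp) and Gzma lay within it. Klra7 was at 115 CPM in the Il10-/- library and 200 to 386 CPM (median 242) in the frozen DSS libraries, Ncr1 at 34.8 against 56.3 to 121 CPM (median 69.8) and Fcer1g at 618 against 854 to 1335 CPM (median 1222). Klrd1, of the cytotoxic list, was at 386 against 592 to 920 CPM (median 762). Cd3e in group 25 was at 374 CPM against 218 to 374 CPM. Cxcr6 lay above the frozen range there (196 against 75.7 to 127 CPM), as did Cd8a narrowly (249 against 86.6 to 248 CPM). Of the Il10-/- UMIs of Klra7, 79 were in group 25 and 1 in groups 20 and 43, and of Ncr1 24 and 4. For such genes the values within group 25 largely recount the same UMIs. Whether the mix of cells within group 25 differed was not tested. The strains of the mice are not given in the sources used here.

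Of 24 T cell cytokine genes 4 were lower in the Il10-/- library. For this and the list counts below, the shares over all 7894 genes were 1.32% lower and 1.08% higher. Il4, the type 2 cytokine, was at 2.03 against 5.64 to 35.0 CPM (0.135 of the DSS level, 6 UMIs), and Csf2, the gene of GM-CSF, at 12.9 against 28.1 to 105 CPM (0.252). Xcl1 (0.374) and Ccl3 (0.290) were also lower, and Tnfsf8, the CD30 ligand, was higher (2.40-fold). Kit, the stem cell factor receptor of mast cells and some innate lymphoid cells, was at 13.9 against 50.2 to 198 CPM (0.192). Over all libraries Xcl1 (1384 and 33.0 CPM), Ccl3 (289 and 80.4 CPM), Csf2 (73.6 and 33.0 CPM) and Kit (104 and 32.7 CPM) were higher in group 25 than in group 20. Il4 and Tnfsf8 were lower in it. Lif (0.295), Lgals7 (0.221), Amd2 (0.287) and Sidt1 (0.320) completed the named genes. Of the cytotoxic list 4 of 16 were lower (Ccl3, Klrc1, Klrc2 and Klrd1) and 1 higher (Gzmk, 2.65-fold). The regulatory list had 1 lower of 19 (Klrg1), the T cell identity list had no call in 13 (12 above 0, median 0.30), and the cell cycle list had none in 18 (median -0.56). Of the immediate early genes 3 of 20 were higher (Egr2 2.05-fold, Hspa1a 2.08-fold and Jun 2.03-fold). Beside these, 2 of 6 plasma cell genes, 1 of 6 B cell genes and 1 of 6 monocyte and macrophage genes (median log2 ratio 0.92) were higher in the Il10-/- T cells, 3 of 13 innate lymphoid cell genes (Kit, Klrg1 and Ncr1) were lower, and their part in the other ratios was not tested.

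**Figure D5:**
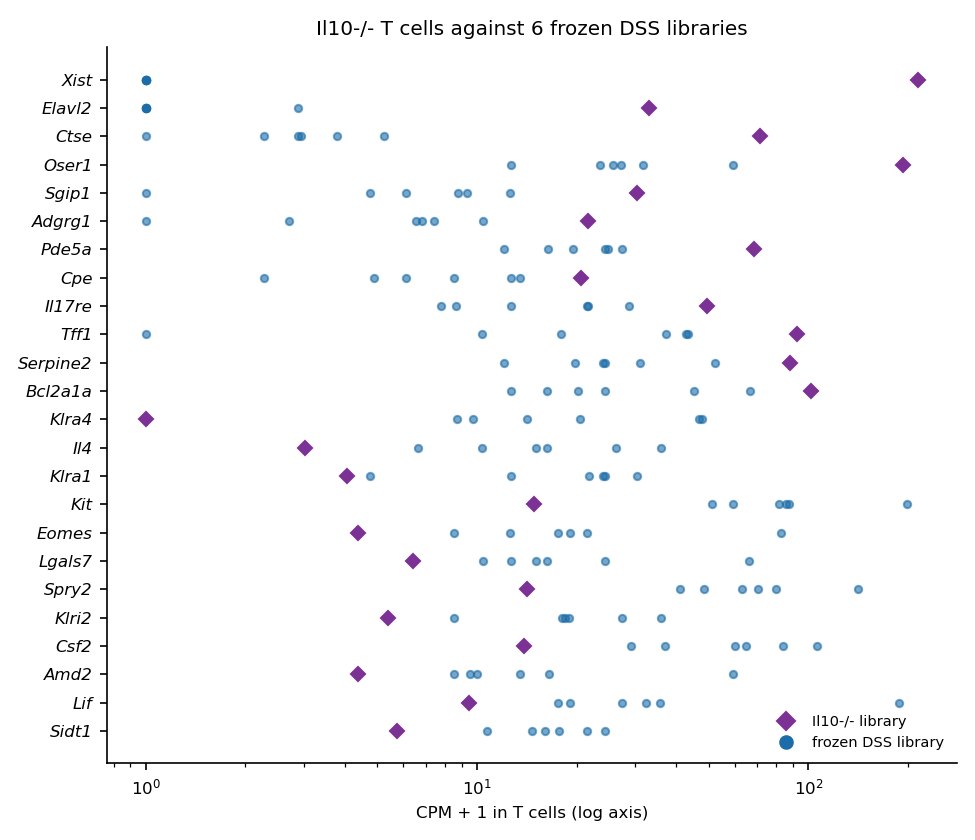
CPM + 1 on a log axis (x) in T cells of the Il10-/- library (diamonds) and of the 6 frozen DSS libraries (circles) for the 24 named genes (y). Each diamond lies outside the range of the circles, as the rule for counting a gene requires.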

How the data were processed

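The deposited matrix holds UMI counts (whole numbers) for each gene in each cell, made by the authors with Cell Ranger 3.0.0 and mm10, per the submitters' processing notes. Library, storage, pool size, cell type and cell group came from the authors' cell table. Their limits for keeping cells and any doublet removal are not given in the sources used here. The lowest UMI count of a T cell was 496 to 533 per library, and no doublet caller was run. Across all cells 611 barcodes occurred in more than 1 library. The matrix had 14 libraries, and 3 with 12621 cells (449 T cells) matched no sample and were left out. Of 30406 gene rows, 597 with a placeholder name (0.474% of T cell counts) were left out.

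Counts were summed over T cells per library (1 library per group). Day slopes used edgeR 4.0.16 (R 4.3.3; quasi-likelihood, TMM, filterByExpr) on the 9 DSS libraries with day and batch as terms, Benjamini-Hochberg adjusted, threshold 0.05. DESeq2 1.42.0 was an alternative. Shares used exact Clopper-Pearson intervals, ratios exact Poisson intervals, and relations with day exact permutation over all orders (Python 3.11.15, numpy 2.4.6, scipy 1.17.1, pandas 2.3.3, matplotlib 3.10.9). Intervals and floors cover counting error only. Gene positions came from GENCODE vM21. Of each test the text names up to 10 genes per direction (5 for batch, 12 for Il10-/-, 15 for markers) by size among those called and at least as high in T cells as in other cells, filled by p where fewer than 5 were called, and 2 to 6 members of each list. The cells and gene lists were chosen with earlier results of these data known. The comparisons between T cells split by their own UMIs, the fits with or without cell group 25, and the subset shares without days 19 and 23 were added after seeing the data. Values of a few genes are not reported here.

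On simulated data with 200 of 7848 genes changed, 68.4% of slopes of 1 log2 unit per 10 days and 97.0% of slopes of 2 were recovered. Of the calls, 4.14% were false. The simulated counts held no batch effect, unlike the real ones, so these shares do not cover it. For the Il10-/- rule, with 7887 genes and Poisson noise only, 98.5% of 4-fold changes were recovered and 7 other genes were called.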

Additional observations from a re-analysis of the deposited data

How the results depend on the processing

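No paired analysis was possible because each group has 1 library and every replicate number is 1; the comparisons between split T cells were made within libraries. The 17 day calls became 75 with DESeq2 (38 rising, 37 falling; 16 shared), 266 with no filter on low counts, 0 without the batch term, 43 with only the frozen libraries (7 shared), 6 without cell group 25 (3 shared) and 45 in group 25 alone (10 shared), and leaving out each library gave 0 to 110. The 919 batch calls became 474 in group 25 alone, and leaving out each library gave 394 (without day 18) to 1057. The 189 Il10-/- genes became 323 against days 19 and 23 only, 341 with at least 20 counts and 114 without group 25. For Cd4 with day, r was 0.830 with only frozen libraries, 0.510 at 500 UMIs, 0.731 at 2000 UMIs, 0.535 unthinned and 0.618 without days 19 and 23, none of which passed (adjusted exact permutation p = 0.274, 0.355, 0.147, 0.549 and 0.224), and leaving out each library gave 0.673 to 0.912. Leaving out each library gave r of 0.614 to 0.791 for Cd8a, which passed without day 12 (adjusted exact permutation p = 0.0173), and of 0.631 to 0.909 for Foxp3, which passed without day 12 or day 18 (adjusted exact permutation p = 0.00602 and 0.0471). Foxp3's rho turned to -0.383 at 2000 UMIs and -0.150 unthinned. The share of T cells with no receptor or CD3 UMI was 23.6% at 500 and 4.44% at 2000 UMIs, each among the cells that reached that depth. Of the comparisons between split T cells 21 passed, 0 with only frozen libraries, and leaving out each library gave 19 to 23. Ltb in Trdc against Cd4 cells turned from -0.08 to 0.31 without group 25 (adjusted exact permutation p = 0.0276, 7 libraries). The causes were not tested. The 38 uninjured and 58 day 6 T cells limit every value of those libraries, and the lone Il10-/- library allows no test.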

Other observations

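T cells of the day 7 library held 989 UMIs of Calca, the gene of calcitonin and of the neuropeptide CGRP, in 14.2% of cells (337 CPM). The other libraries had 0 to 48.7 CPM. The gene was singled out after its values were seen.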
